A study of Mus musculus with 6 samples.

Results

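The 37 cell cycle genes described here were taken from a fixed list and found by symbol among the 27815 gene identifiers of an aorta RNA-seq series, and all 37 were present. They fall into 17 genes of the G1/S transition and DNA replication and 20 genes of G2 and mitosis. Polyadenylated RNA from C57BL/6 mouse aortas had been sequenced in 6 libraries, with 2 libraries for each group of mice. Wild-type mice aged 2 months served as controls (Ctrl). The ApoE group carried the ApoE-/- genotype and stayed on chow until 16 months of age, when the aorta held calcified atherosclerotic plaques. In the CKD group, a model of chronic kidney disease with calcification of the medial layer, kidney tissue was removed in 2 operations that began at 8 weeks of age and were 1 week apart. A diet of 2% phosphate and drinking water with 0.45% NaCl followed for 4 weeks. The age label of the CKD libraries is 16 months, which conflicts with this protocol, so their age is uncertain. No genotype apart from the disease state is given for the CKD mice. ApoE and Ctrl differ in age and genotype together, and those 2 factors cannot be told apart.

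Nothing in the labels says that the 2 libraries of a group came from separate animals, and the extraction protocol speaks of pools of 4 samples for miRNA sequencing. The p-values below therefore measure only the spread between libraries, which may be technical. The libraries held 14.44 to 16.64 M reads. Apoe stood at 756 and 627 FPKM in Ctrl (reads per kilobase of exon per 1 M reads), at 13.2 and 11.4 in ApoE and at 1410 and 1447 in CKD. The summed level of 5 smooth muscle markers, led by Acta2 and Myh11, was 8018 and 7187 FPKM in Ctrl, 618 and 543 in ApoE and 3306 and 5775 in CKD, so all 6 libraries held the muscle markers of an aorta at very different levels.

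A cell that enters division passes the G1/S transition when D- and E-type cyclins with their kinases inactivate the retinoblastoma proteins and release E2F transcription factors, which switch on the genes for DNA replication. Genes for the spindle, the kinetochore and the mitotic kinases follow later, under the MuvB core complex with B-Myb and FoxM1. In resting cells the DREAM complex, built on MuvB, E2F4 and the pocket proteins p107 and p130, holds both sets down. Smooth muscle cells of the adult artery are mostly quiescent, and both smooth muscle cells and macrophages can divide in atherosclerotic plaques.

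The 2 classes carried different motifs around their start sites, described here with no test. RefSeq promoter windows (build GRCm38.p6, 250 bases before to 50 after the annotated start) were matched for 31 members, 14 of the G1/S class and 17 of the mitotic class. Ccnd1, Ccne2, Mcm4, Ccna2, Aurkb and Tpx2 were not matched. An E2F motif, searched on both strands as TTTCCCGC or TTTCGCGC or TTTGCCGC or TTTGGCGC, was found for 7 of 14 G1/S genes, for 1 of 17 mitotic genes (5.88%), Cdk1, and for 704 of all 27025 genes with a window (2.6%). A gene with more than 1 window was counted once, where any of them held the motif. A CHR motif, TTTGAA or TTCGAA, which is the element bound by MuvB, was found for 2 of 14 G1/S genes (14.3%), Mcm2 and Mcm7, and for 14 of 17 mitotic genes (82.4%), against 21.7% of all genes. The CCAAT box was found for 64.3% of the G1/S, 88.2% of the mitotic and 41.1% of all genes, and CHR together with CCAAT for 14.3%, 82.4% and 8.61%. A match is only a match of letters, and occupancy was not measured in these libraries.

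Upstream sequences of 5 members show the contrast. Each is the 160 bases that end at the base before the RefSeq start, read 5′ to 3′ on the gene's strand, with matches to any of the 3 motifs on either strand in capitals. Cdk1 is shown because it carried all 3 motifs, Mki67 and Top2a because they carried CHR and CCAAT and no E2F match, and Mcm5 and Mcm6 because they carried E2F and CCAAT and no CHR match.
Cdk1 (chr10:69352913-69353072, minus strand): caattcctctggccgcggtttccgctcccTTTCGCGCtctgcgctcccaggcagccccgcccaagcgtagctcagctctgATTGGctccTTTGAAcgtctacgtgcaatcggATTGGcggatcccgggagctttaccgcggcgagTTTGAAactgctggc
Mki67 (chr7:135716380-135716539, minus strand): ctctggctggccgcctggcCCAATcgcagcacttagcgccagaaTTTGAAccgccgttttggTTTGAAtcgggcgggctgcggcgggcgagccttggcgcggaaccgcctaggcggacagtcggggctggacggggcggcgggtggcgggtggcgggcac
Top2a (chr11:99024190-99024349, minus strand): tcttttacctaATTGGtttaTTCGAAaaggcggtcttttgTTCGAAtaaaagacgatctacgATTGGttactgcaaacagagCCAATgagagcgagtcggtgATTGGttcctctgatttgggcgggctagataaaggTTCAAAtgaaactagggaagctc
Mcm5 (chr8:75109349-75109508, plus strand): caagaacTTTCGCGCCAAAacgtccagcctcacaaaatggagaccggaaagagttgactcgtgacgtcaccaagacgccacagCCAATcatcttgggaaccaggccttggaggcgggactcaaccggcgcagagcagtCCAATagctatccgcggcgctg
Mcm6 (chr1:128359706-128359865, minus strand): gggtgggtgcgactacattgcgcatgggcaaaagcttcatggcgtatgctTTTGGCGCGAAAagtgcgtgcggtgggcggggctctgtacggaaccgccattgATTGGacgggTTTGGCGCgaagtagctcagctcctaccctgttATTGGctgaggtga
In Cdk1 the E2F match ran from -131 to -124 relative to the start, and the CHR matches began at -71 and -15. Those of Mki67 began at -116 and -98. In Mcm5 (from -153) and in Mcm6 (from -110) the E2F matches on the 2 strands overlapped each other, and Mcm6 had another E2F match from -47. The only overlap between different motifs in a member's window was that of E2F with CCAAT in Mcm7.

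**Figure D1:**
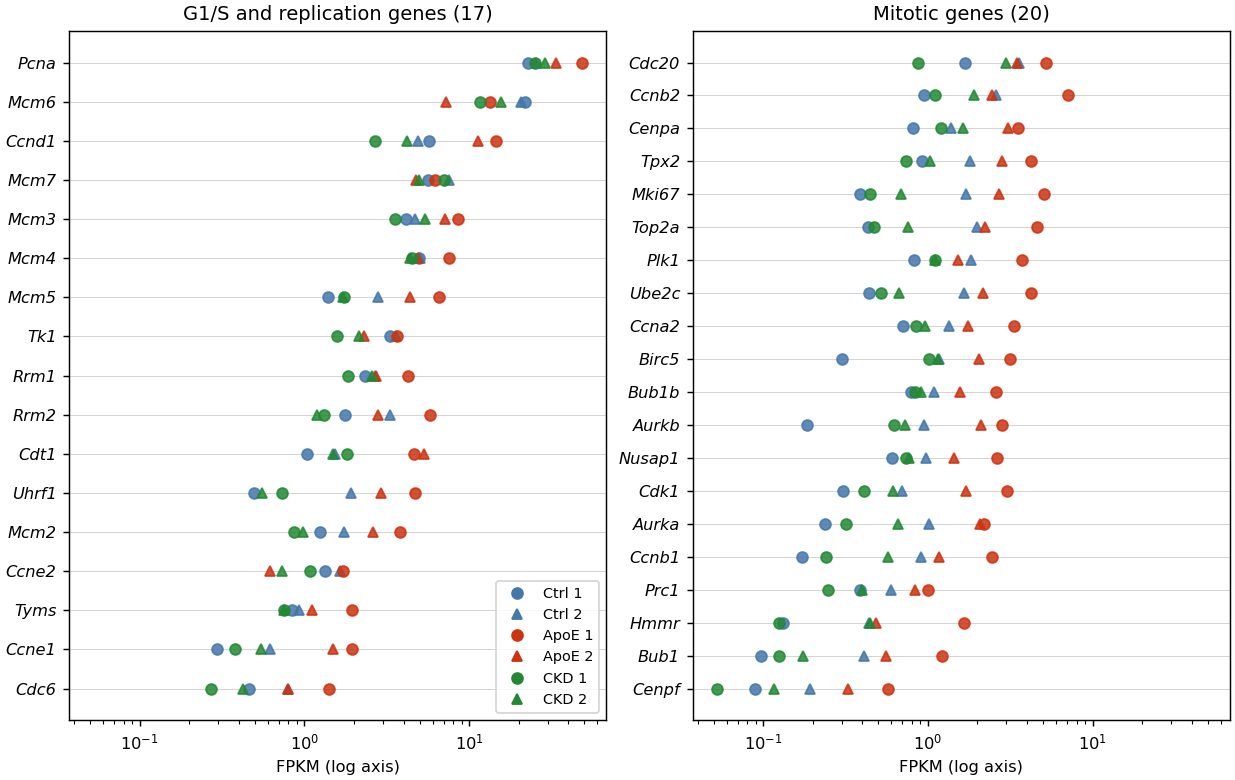
FPKM of the 17 G1/S and 20 mitotic genes in each of the 6 libraries, on a log axis, with circles for library 1 and triangles for library 2 of Ctrl, ApoE and CKD. The library ApoE 1 is the highest point for 34 of 37 genes, and Mcm6 is the member for which both Ctrl libraries stand above both ApoE libraries.

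In the young control aorta the G1/S genes were the more abundant class. Pcna, the sliding clamp of the replication fork, led at 22.8 and 25.4 FPKM and Mcm6, a helicase subunit, followed at 21.9 and 20.8. The median G1/S gene stood at 1.76 FPKM in Ctrl 1 and 2.78 in Ctrl 2. The mitotic genes were near the floor in Ctrl 1, with a median of 0.411 FPKM, 1 of 20 genes (Cdc20) at 1 FPKM or more, and 719 reads over the whole class. They stood higher in Ctrl 2, with a median of 1.13 FPKM, 12 of 20 at 1 FPKM or more and 1714 reads. The 2 control libraries thus differed in every mitotic gene, 20 of 20 being higher in Ctrl 2, with a median ratio of 2.52 and the widest in Ccnb1 (5.31). For the G1/S genes 15 of 17 were higher in Ctrl 2, with a median ratio of 1.23.

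The same kind of spread was present in the other groups. ApoE 1 exceeded ApoE 2 in 36 of 37 members, the exception being Cdt1, and the median ratio of ApoE 1 to ApoE 2 was 1.54 for G1/S and 1.81 for mitotic genes. CKD 2 exceeded CKD 1 in 19 of 20 mitotic genes and in 9 of 17 G1/S genes. Over the mitotic class the reads numbered 4615 and 2468 in ApoE and 732 and 1056 in CKD. Over the G1/S class they numbered 5374 and 5460 in Ctrl, 8485 and 5435 in ApoE and 3742 and 4254 in CKD. The smallest count of any member was 7 reads, for Bub1 in Ctrl 1, and the largest 1846, for Pcna in ApoE 1.

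Most of the members stood higher in the ApoE aorta than in Ctrl. The test was limma on log2(FPKM + 1), with p-values adjusted by Benjamini-Hochberg over all 14074 genes that reached 1 FPKM in at least 2 libraries, and a gene is called at an adjusted p below 0.05. Of the 37 members 32 were tested, and 17 were higher in ApoE, 1 was lower and 14 were not called. Over all tested genes 19.8% were called higher and 24.3% lower. The tested set is not neutral, since 13 of the 32 met the minimum only with the help of the ApoE libraries, and 6 of these reached 1 FPKM in the ApoE libraries alone and so had to differ to enter. A filter on the mean over all 6 libraries, which lets all 37 in, called 15 higher and 1 lower. The share of all genes called with that filter is not given here.

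The calls depended on the libraries fitted, with the fewest members called without Ctrl 1 or without ApoE 1. Leaving out a library also lowers the degrees of freedom of the spread that all groups share, and the calls over all genes moved as well. A library of the group not compared enters only through that spread. Without either ApoE library 26 members were tested in place of 32. Both ApoE libraries stood above both Ctrl libraries for 28 of 37 members and below them for 1, while over the 17620 genes above 0 in all libraries the shares were 34.6% above and 40.4% below. The median difference over all 37 members was 0.74 on the log2(FPKM + 1) scale, and over those 17620 genes it was -0.04. In bulk tissue fewer cells of a type and less RNA per cell cannot be told apart, and this holds for each level given here.

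**Figure D2:**
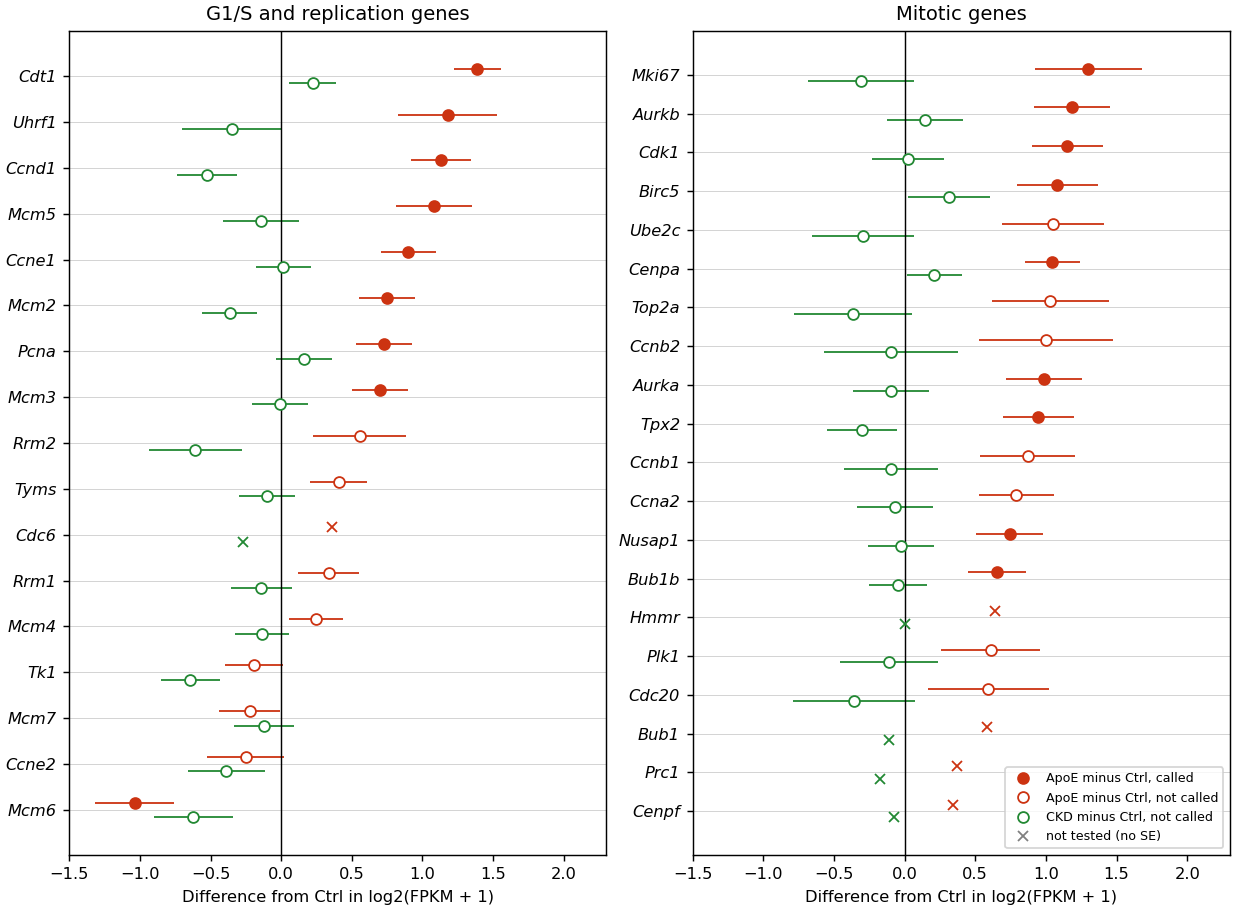
Difference from Ctrl in log2(FPKM + 1) for each member, with limma's SE as the bar, for ApoE (red) and CKD (green); filled points are called and crosses mark the 5 members that were not tested. The ApoE points lie to the right of 0 for all 20 mitotic genes and for 13 of 17 G1/S genes, and no CKD point is filled.

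Among the genes that start the cycle, cyclin D1 and cyclin E1 rose. Ccnd1 (chromosome 7, 144929931 to 144939925 in GRCm38), the cyclin that couples growth signals to CDK4 and CDK6, stood at 5.73 and 4.91 FPKM in Ctrl, 14.5 and 11.3 in ApoE and 2.69 and 4.22 in CKD. Every ApoE value was above every Ctrl value, and both CKD values were below them. The ApoE difference from Ctrl was 1.13 ± 0.21 (SE) in log2(FPKM + 1), with a limma adjusted p of 0.00875, and the call was lost without Ctrl 2 or without ApoE 1 (adjusted p at most 0.0524). Ccnd1 shares 23.4% of its exon bases with a gene on the opposite strand, and the library kit did not mark strand. Ccne1, which activates CDK2 at the G1/S boundary, stood at 0.293 and 0.620 FPKM in Ctrl, 1.93 and 1.49 in ApoE and 0.381 and 0.546 in CKD. ApoE stood above both other groups, and CKD lay inside the Ctrl range. The ApoE difference from Ctrl was 0.90 ± 0.19 (adjusted p = 0.0137, limma). The call was lost without Ctrl 1 (0.0868), and without either ApoE library the gene fell under the minimum and was not tested. Its paralogue Ccne2 showed no such pattern, at 1.34 and 1.64 FPKM in Ctrl, 1.71 and 0.616 in ApoE and 1.08 and 0.733 in CKD, with both Ctrl values between the ApoE values.

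Of Cdt1 and Cdc6, which license replication origins, only Cdt1 was high enough to be tested. Cdt1 (chromosome 8, 122568015 to 122573554), which loads the MCM helicase onto origins, stood at 1.03 and 1.54 FPKM in Ctrl, 4.60 and 5.31 in ApoE and 1.81 and 1.50 in CKD. The 2 ApoE values were close together and well above the other 4. The difference from Ctrl was 1.39 ± 0.17 (limma adjusted p = 0.00194), and of the 18 calls in this comparison Cdt1 was the only one kept under all 14 alternatives run, with adjusted p from 0.00195 to 0.0202. Cdc6, the partner of Cdt1 in helicase loading, was too low to be tested, at 0.460 and 0.796 FPKM in Ctrl, 1.40 and 0.798 in ApoE and 0.272 and 0.424 in CKD. Its ApoE values lay above Ctrl, by very little in ApoE 2, and its CKD values lay below.

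The 6 subunits of the MCM2-7 helicase, which act as a single ring, did not move together at the RNA level. Mcm2, Mcm3 and Mcm5 rose in ApoE, Mcm6 fell, and Mcm4 and Mcm7 were not called. Mcm2 stood at 1.24 and 1.75 FPKM in Ctrl, 3.80 and 2.62 in ApoE and 0.865 and 0.985 in CKD. Mcm3 stood at 4.16 and 4.72 in Ctrl, 8.61 and 7.12 in ApoE and 3.57 and 5.39 in CKD, and Mcm5 at 1.40 and 2.78, at 6.60 and 4.35 and at 1.73 and 1.72. For these 3 the ApoE libraries were above all others, and the differences from Ctrl were 0.75 ± 0.20 (limma adjusted p = 0.0257), 0.70 ± 0.20 (0.0324) and 1.08 ± 0.27 (0.0224). Each of the 3 calls was lost without Ctrl 1 and without ApoE 1, Mcm2 and Mcm3 also without Ctrl 2, and Mcm3 also without ApoE 2, with adjusted p of at most 0.152.

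Mcm6 (chromosome 1, 128331590 to 128359664) ran the other way. It stood at 21.9 and 20.8 FPKM in Ctrl, 13.3 and 7.27 in ApoE and 11.7 and 15.6 in CKD, so that both disease groups were below Ctrl and overlapped each other. It was lower in ApoE by -1.04 ± 0.28 (limma adjusted p = 0.0285), and the call was lost without Ctrl 1, without Ctrl 2 and without ApoE 2 (adjusted p at most 0.116). In CKD the difference was -0.62 ± 0.28 (adjusted p = 0.198). Per length, the level of Mcm6 was 6.29 and 4.77 times the mean of the other 5 subunits in Ctrl, 2.03 and 1.53 times in ApoE and 3.30 and 4.45 times in CKD. Mcm4 stood at 4.97 and 5.01 FPKM in Ctrl, 7.57 and 4.91 in ApoE and 4.52 and 4.40 in CKD, and Mcm7 between 4.79 and 7.52 in all 6 libraries, with overlapping groups. The smooth muscle markers listed above also fell in ApoE, in 5 of 5 genes, and stood below Ctrl in both CKD libraries, as did Mcm6, and their part in the Mcm6 values was not tested.

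**Figure D3:**
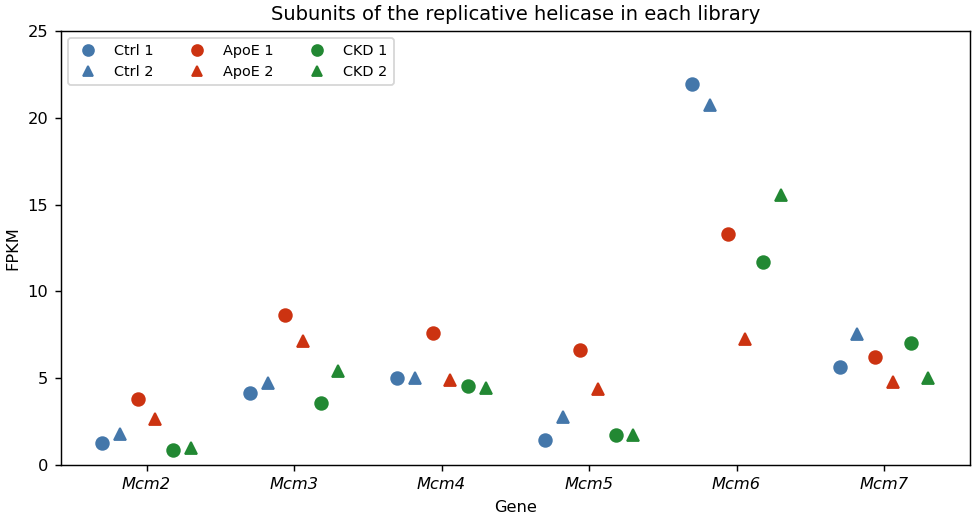
FPKM of the 6 MCM2-7 subunits in each library, on a linear axis, by group and library. Mcm6 stands apart in Ctrl at 21.9 and 20.8 and is lower in ApoE, where Mcm2, Mcm3 and Mcm5 are higher than in Ctrl.

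The DNA synthesis genes gave 2 calls. Pcna (chromosome 2, 132249162 to 132253314) stood at 22.8 and 25.4 FPKM in Ctrl, 48.3 and 33.9 in ApoE and 25.2 and 29.0 in CKD. The ApoE values were the highest and the difference from Ctrl was 0.73 ± 0.20 (limma adjusted p = 0.0303), a call lost without Ctrl 1, Ctrl 2 or ApoE 1 (at most 0.157). Uhrf1, which brings DNA methyltransferase to newly copied DNA, stood at 0.494 and 1.92 FPKM in Ctrl, 4.70 and 2.92 in ApoE and 0.730 and 0.553 in CKD. The controls differed almost 4 times (3.89) from each other and still stayed below ApoE, with a difference of 1.18 ± 0.35 (adjusted p = 0.0395) that lost its call without any 1 of the libraries except Ctrl 2 (at most 0.178). The enzymes of nucleotide supply were not called: Rrm1 and Rrm2, the subunits of ribonucleotide reductase, had differences of 0.34 ± 0.22 and 0.56 ± 0.33, Tyms, thymidylate synthase, 0.41 ± 0.20 and Tk1, thymidine kinase, -0.19 ± 0.21. Their limma adjusted p-values ran from 0.149 (Tyms) to 0.479 (Tk1). GENCODE M21 lists processed copies of Pcna, Tyms, Ccnb1 and Ccnb2, and reads could have been split between such copies.

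The mitotic genes were all at their highest in the library ApoE 1, 20 of 20. Mki67 (chromosome 7, 135689784 to 135716361), which encodes the Ki-67 antigen that coats mitotic chromosomes and is used to stain dividing cells, stood at 0.388 and 1.69 FPKM in Ctrl, 5.10 and 2.71 in ApoE and 0.444 and 0.688 in CKD. In reads this was 65 and 258 in Ctrl, 818 and 406 in ApoE and 66 and 100 in CKD, where 65 reads carry an exact 95% Poisson interval of 50.2 to 82.8 that covers counting error only. The 2 Ctrl libraries therefore differed by more than counting error, and ApoE stayed above both. The difference from Ctrl was 1.30 ± 0.38 (limma adjusted p = 0.0366), and only leaving out Ctrl 2 kept the call among the 6 libraries (at most 0.169). Top2a, the topoisomerase that untangles sister chromatids, stood at 0.433 and 1.99 FPKM in Ctrl, 4.57 and 2.22 in ApoE and 0.473 and 0.753 in CKD. Its lower ApoE library and its higher Ctrl library were nearly level, and the difference of 1.03 ± 0.42 was not called (adjusted p = 0.0910).

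Cdk1 (chromosome 10, 69335146 to 69352938), the kinase that drives entry into mitosis, stood at 0.305 and 0.696 FPKM in Ctrl, 3.04 and 1.70 in ApoE and 0.411 and 0.617 in CKD. Ctrl and CKD lay on top of each other and ApoE stood apart, by 1.15 ± 0.25 (limma adjusted p = 0.0148). The call was lost without Ctrl 1 (0.0829), and the gene was not tested without either ApoE library. Cdk1 is among 6 members, with Ccne1, Tyms, Ccnb1, Aurkb and Nusap1, that reached 1 FPKM only in the 2 ApoE libraries. Of its cyclin partners, Ccna2, Ccnb1 and Ccnb2 were not called. Ccnb2 stood at 0.942 and 2.59 FPKM in Ctrl, 7.05 and 2.46 in ApoE and 1.10 and 1.90 in CKD, and its ApoE 2 value lay below Ctrl 2. Differences from Ctrl were 0.79 ± 0.27 for Ccna2, 0.87 ± 0.34 for Ccnb1 and 1.00 ± 0.48 for Ccnb2 (adjusted p = 0.0574, 0.0810 and 0.137).

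The Aurora kinases and their partners rose in ApoE. Aurka, the spindle pole kinase, stood at 0.237 and 1.02 FPKM in Ctrl, 2.18 and 2.07 in ApoE and 0.321 and 0.657 in CKD. Its activator on the spindle, Tpx2, stood at 0.925 and 1.79 in Ctrl, 4.23 and 2.82 in ApoE and 0.737 and 1.04 in CKD. The ApoE libraries were above the other 4 for both genes, by 0.98 ± 0.27 from Ctrl for Aurka (limma adjusted p = 0.0298) and 0.95 ± 0.25 for Tpx2 (0.0272). Aurkb, the kinase of the chromosomal passenger complex, stood at 0.184 and 0.942 in Ctrl, 2.83 and 2.1 in ApoE and 0.620 and 0.729 in CKD. Birc5, survivin, a further subunit of that complex, stood at 0.300 and 1.17 in Ctrl, 3.15 and 2.04 in ApoE and 1.01 and 1.16 in CKD. Both genes separated ApoE from Ctrl, by 1.19 ± 0.27 (adjusted p = 0.0162) and 1.08 ± 0.29 (0.0273). All 4 calls were lost without Ctrl 1, those of Aurka, Tpx2 and Birc5 also without ApoE 1, and those of Aurka and Birc5 also without ApoE 2 (adjusted p at most 0.135). Aurkb fell under the minimum and was not tested without either ApoE library.

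At the centromere and the spindle the calls were 3. Cenpa, the histone H3 variant of centromeric chromatin, stood at 0.810 and 1.39 FPKM in Ctrl, 3.53 and 3.06 in ApoE and 1.20 and 1.63 in CKD. It had the smallest adjusted p of the mitotic class (1.05 ± 0.19, limma adjusted p = 0.00807), lost without Ctrl 1 or ApoE 1 (at most 0.0517). Bub1b, the checkpoint protein BubR1, stood at 0.787 and 1.10 in Ctrl, 2.60 and 1.57 in ApoE and 0.838 and 0.907 in CKD. Nusap1, a microtubule bundling protein, stood at 0.607 and 0.977 in Ctrl, 2.64 and 1.44 in ApoE and 0.733 and 0.768 in CKD. Both separated ApoE from the other libraries but passed narrowly, at 0.65 ± 0.21 (adjusted p = 0.0468) and 0.74 ± 0.23 (0.0463). The call of Bub1b was lost without Ctrl 1, Ctrl 2, ApoE 1 or either CKD library, and that of Nusap1 without either Ctrl or either CKD library (adjusted p at most 0.213), and Nusap1 was not tested without either ApoE library. Both were also lost with the filter on the mean and with libraries scaled without mitochondrial and the 50 most abundant genes.

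The remaining mitotic members were not called or not tested. Ube2c and Cdc20, which act with the anaphase-promoting complex, had differences of 1.05 ± 0.36 and 0.59 ± 0.43 and Plk1, the polo-like kinase, 0.61 ± 0.35 (limma adjusted p = 0.0593, 0.303 and 0.202). For Cdc20 and Plk1 the Ctrl 2 value exceeded that of ApoE 2. Bub1, Cenpf, Prc1 and Hmmr did not reach the minimum, and their highest values were 1.22, 0.569, 1.01 and 1.66 FPKM, each in ApoE 1. For these 4 both ApoE values were above both Ctrl values. Exon bases shared with other genes make Ube2c (22.8%), Ccne2 (17.4%), Mcm7 (12.6%), Ccna2 (12.5%), Prc1 (11.1%) and Plk1 (7.09%) uncertain to that extent. The overlapping genes lie on the opposite strand, except for Mir25 and Mir93 at Mcm7.

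No member was called between CKD and Ctrl. By limma 0 of 32 tested members passed, and 2 had an unadjusted p below 0.05, Ccnd1 and Tk1. In the same comparison 2.23% of all tested genes were called higher and 3.21% lower. Those calls depended on the libraries fitted and rose without CKD 2. Most were lost without either Ctrl library or CKD 1, and also without either ApoE library, which enters this contrast only through the shared spread. Tk1 (chromosome 11, 117815526 to 117826092) stood at 3.33 and 3.60 FPKM in Ctrl, 3.63 and 2.29 in ApoE and 1.59 and 2.16 in CKD. Both CKD values were the lowest of the 6, with a difference from Ctrl of -0.64 ± 0.21 (adjusted p = 0.108). For Ccnd1 that difference was -0.52 ± 0.21 (adjusted p = 0.166).

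The members without overlap between CKD and Ctrl were 9, all of them lower in CKD and all of the G1/S class: Ccnd1, Ccne2, Cdc6, Mcm2, Mcm4, Mcm6, Tyms, Rrm2 and Tk1. None of the 20 mitotic genes separated the groups in either direction. Over all 17620 genes 28.8% stood above and 33% below in both CKD libraries, so 9 of 37 below is no larger a share than that of genes at large. Within the G1/S class alone 9 of 17 stood below and 0 above, which was not tested. The ranges of CKD and Ctrl overlapped for all 20 mitotic genes, as for Mki67 (0.444 and 0.688 against 0.388 and 1.69) and Cdk1 (0.411 and 0.617 against 0.305 and 0.696). With controls this far apart, no mitotic difference of CKD from Ctrl was detected, which is not a measurement of no difference. Against the same controls 9 mitotic genes were called higher in ApoE, but the adjusted p also depends on how many genes differ in a comparison. Bub1b in ApoE, at 0.65 ± 0.21, was called (limma adjusted p = 0.0468). Tk1 in CKD, at -0.64 ± 0.21, was not (0.108). Mitotic differences in CKD as large as some called in ApoE could therefore have been missed. The median difference over all 37 members was -0.11, and over the 17620 genes it was -0.02.

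ApoE was also above CKD for most members. Limma called 19 of 32 tested members higher in ApoE and 0 lower, against 18.5% and 21.2% of all tested genes. The filter on the mean over all libraries called 17 of 37, a count given without its share of all genes. The fewest members were called without ApoE 1 or without CKD 1, and the calls over all genes also fell whenever a library was left out. Both ApoE libraries stood above both CKD libraries for 34 of 37 members and below for 0, with shares over all genes of 31.3% above and 37% below. This comparison shares the ApoE libraries with the one against Ctrl, so the 2 are not independent. Ccnd1, at 1.66 ± 0.21 (adjusted p = 0.00313), Cdt1, at 1.17 ± 0.17 (0.00435), and Mcm2, at 1.11 ± 0.20 (0.00801), kept their calls under all 14 alternatives run.

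Among the members called here and not against Ctrl were Rrm2, Top2a, Ccna2 and Ube2c. Rrm2 stood at 1.76 and 3.29 FPKM in Ctrl, 5.75 and 2.79 in ApoE and 1.32 and 1.20 in CKD. Its Ctrl 2 value lay above ApoE 2 while CKD was the lowest, and the difference of ApoE from CKD was 1.16 ± 0.33 (limma adjusted p = 0.0363). For Top2a it was 1.40 ± 0.42 (0.0419) and for Mki67 1.61 ± 0.38 (0.0205). Ccna2 stood at 0.707 and 1.34 FPKM in Ctrl, 3.33 and 1.76 in ApoE and 0.845 and 0.967 in CKD, and differed by 0.86 ± 0.27 (0.0484). Ube2c, at 0.439 and 1.65 FPKM in Ctrl, 4.20 and 2.15 in ApoE and 0.520 and 0.666 in CKD, differed by 1.35 ± 0.36 (0.0309). All 5 of these calls were lost without ApoE 1 and without CKD 1, with adjusted p of at most 0.198. Members called against Ctrl and not against CKD were Pcna, Birc5 and Mcm6, for which CKD lay between Ctrl and ApoE or overlapped them, and whether the 2 contrasts differ was not tested.

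The contrast between the classes was taken as a score per library, the mean log2(FPKM + 1) of the 17 G1/S genes minus that of the 20 mitotic genes. It was 1.31 and 1.00 in Ctrl, 0.73 and 0.83 in ApoE and 1.08 and 0.94 in CKD. Both ApoE libraries were below the other 4, and CKD overlapped Ctrl. The G1/S mean was 1.88 and 2.13 in Ctrl, 2.71 and 2.25 in ApoE and 1.72 and 1.81 in CKD, and the mitotic mean was 0.57 and 1.13, 1.97 and 1.42, and 0.64 and 0.87. ApoE exceeded Ctrl by 0.47 in the G1/S mean and by 0.85 in the mitotic mean, a difference between classes of -0.37 beside a pooled library SD of 0.15. CKD was below Ctrl by -0.24 in the G1/S mean and by -0.09 in the mitotic mean, a difference of -0.14 that is within that SD. Between ApoE and CKD the difference was -0.23. The score is a description with no p, and low genes are compressed on this scale, so that with a pseudocount of 0.1 in place of 1 the ApoE value was -0.81.

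**Figure D4:**
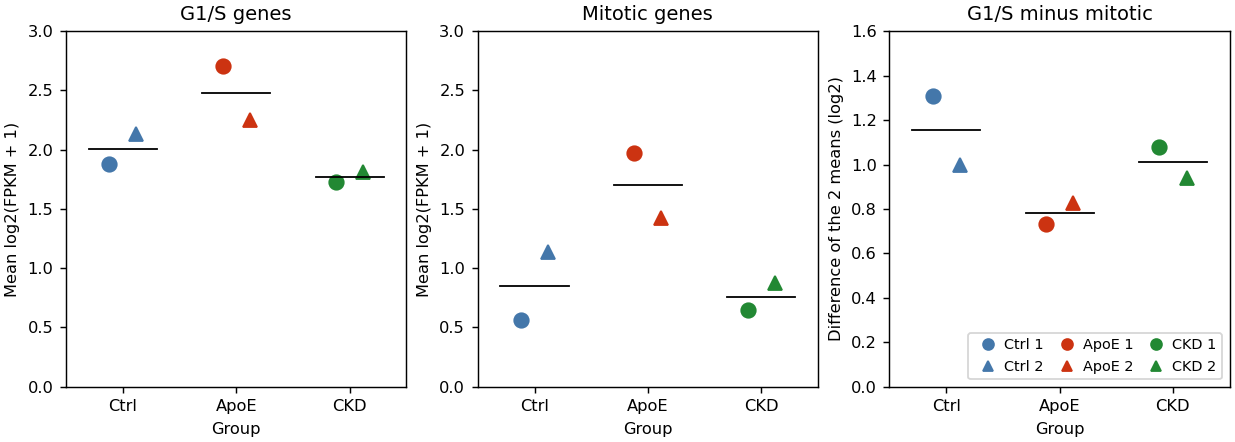
Mean log2(FPKM + 1) of the 17 G1/S genes, of the 20 mitotic genes and the difference of the 2 means, per library, with a line at each group mean. The mitotic mean is highest in ApoE (1.97 and 1.42) and the difference is smallest there (0.73 and 0.83).

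Among the regulators upstream of the 2 classes, 19 genes of the E2F, retinoblastoma and DREAM families, 17 were tested, and 3 were higher and 3 lower in ApoE than in Ctrl. These shares do not exceed the 19.8% and 24.3% of all tested genes. E2f1, an activator of replication genes, stood at 1.91 and 1.53 FPKM in Ctrl, 6.19 and 5.12 in ApoE and 0.858 and 1.54 in CKD (1.29 ± 0.20 against Ctrl, limma adjusted p = 0.00448), a call kept in all 14 alternatives run. The pocket protein genes moved apart: Rbl1, p107, was higher by 0.82 ± 0.15 (0.00870) and Rbl2, p130, the form typical of resting cells, lower at -0.60 ± 0.12 (0.0117), but both calls were lost without Ctrl 1 or Ctrl 2, that of Rbl1 also without ApoE 1 and that of Rbl2 also without ApoE 2 (adjusted p at most 0.0877). Tfdp2, a dimer partner of E2F, was lower, at -1.10 ± 0.12 (0.00146). Foxm1 and Mybl2, activators of the mitotic class, are added here after their values were seen, and stood at 0.668 and 0.781 and at 0.480 and 0.713 FPKM in Ctrl against 1.82 and 1.57 and 1.12 and 1.09 in ApoE (limma adjusted p = 0.0293 and 0.0937). The call of Foxm1 was lost without any 1 of those 4 libraries (at most 0.144). In CKD against Ctrl none of the 17 was called by limma, with 3 at an unadjusted p below 0.05.

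Of 10 further cyclin, CDK and Myc genes tested, 2 were higher and 3 lower in ApoE than in Ctrl, close to the 19.8% and 24.3% of all tested genes. Cyclins D2 and D3 fell where cyclin D1 rose. Ccnd2 stood at 18.6 and 18.7 FPKM in Ctrl, 6.40 and 5.34 in ApoE and 6.07 and 11.7 in CKD, and Ccnd3 at 13.6 and 13.0, 7.93 and 6.98, and 9.43 and 9.71 (-1.52 ± 0.28 and -0.76 ± 0.12 in ApoE against Ctrl, limma adjusted p = 0.00784 and 0.00457), and the call of Ccnd2 was lost without ApoE 2 (0.0564). Per length, the D-type cyclin with the highest level was Ccnd2 in both Ctrl libraries and Ccnd1 in both ApoE libraries. Myc, a growth transcription factor, rose in both disease groups, from 1.84 and 2.46 FPKM in Ctrl to 8.94 and 10.7 in ApoE (1.79 ± 0.21, adjusted p = 0.00197) and 12.9 and 8.72 in CKD (1.89 ± 0.21, adjusted p = 0.0227). The call in CKD was lost without any 1 of the libraries except CKD 2 (adjusted p at most 0.149).

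Of 14 genes that inhibit or arrest the cycle, 6 were higher and 3 lower in ApoE than in Ctrl, beside 19.8% and 24.3% of all tested genes, and 3 were higher and 0 lower in CKD, beside 2.23% and 3.21%. Cdkn2a, which encodes p16 and p19Arf, stood at 0.256 and 0.113 FPKM in Ctrl, 5.89 and 5.17 in ApoE and 0.519 and 0.886 in CKD (2.46 ± 0.18 in ApoE against Ctrl, limma adjusted p = 0.000385). Cdkn1a, p21, stood at 26.4 and 25.6 FPKM in Ctrl, 45.2 and 42.0 in ApoE and 160 and 80.6 in CKD. It was called in CKD (2.09 ± 0.31, adjusted p = 0.0330) and not in ApoE (0.72 ± 0.31, adjusted p = 0.110). The call in CKD was lost without any 1 of the Ctrl or ApoE libraries (at most 0.190). Cdkn1a was higher in CKD than in ApoE, the ApoE value minus the CKD value being -1.36 ± 0.31 (adjusted p = 0.0193), a call lost without either ApoE library (at most 0.0996). Both CKD libraries held more p21 transcript than any other library.

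Further replication and mitosis genes were counted on lists beyond the 37. Of 33 replication genes tested 8 were higher and 2 lower in ApoE than in Ctrl, the higher share being near the 19.8% of all tested genes. The smallest adjusted p was that of Gmnn, geminin, the inhibitor of Cdt1, at 2.58 and 3.29 FPKM in Ctrl, 11.9 and 8.17 in ApoE and 3.19 and 2.08 in CKD (1.47 ± 0.24, limma adjusted p = 0.00513). Of 31 kinetochore, spindle and cytokinesis genes tested 16 were higher and 4 lower, beside 19.8% and 24.3% of all tested genes. This tested set is not neutral either, since 21 of the 52 listed genes were not tested. Some that were tested, such as Cdca5 and Spc24, reached 1 FPKM in the ApoE libraries alone and so had to differ to enter. Incenp, the scaffold of the complex that holds Aurkb and Birc5, stood at 2.60 and 3.53 FPKM in Ctrl, 9.30 and 8.38 in ApoE and 3.38 and 3.98 in CKD (1.28 ± 0.16, adjusted p = 0.00213). Pttg1, securin, and Anln, anillin, fell (-0.90 ± 0.16 and -1.68 ± 0.29, adjusted p = 0.00632 and 0.00652). In CKD against Ctrl 1 of these 64 genes was called, Pold1, the catalytic subunit of DNA polymerase delta, from 5.15 and 5.03 FPKM to 3.15 and 2.55 (-0.67 ± 0.13, adjusted p = 0.0472), beside 3.21% of all tested genes called lower. Its call was lost without any 1 of the libraries except CKD 2 (adjusted p at most 0.278).

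The genes whose levels followed the mitotic mean most closely over the 6 libraries, out of 12302 candidates, were Cdca5 (Pearson r of 0.994), Spc24 (0.993), Cpped1, Cdca3 and Cep55 (0.990 each). These are descriptions over 6 points that share depth and tissue make-up. Candidates had to reach 1 FPKM in at least 2 libraries. Cdca5, Spc24 and Cep55 did so only in the 2 ApoE libraries, where the mitotic mean was highest, so their likeness is partly built in. Cdca5, Spc24, Cdca3 and Cep55 are genes of chromatid cohesion, kinetochore, mitotic entry and cytokinesis, and Cpped1 is a phosphatase gene. Cdca5 stood at 0.0847 and 0.621 FPKM in Ctrl, 1.95 and 1.14 in ApoE and 0.222 and 0.293 in CKD. Cpped1 moved over a much narrower range, between 8.13 and 8.93 FPKM.

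Markers of other cell types moved with some of these values. The sum of 5 macrophage markers was 307 and 285 FPKM in Ctrl, 4522 and 7926 in ApoE and 604 and 1019 in CKD, with 4 of 5 called higher in ApoE than in Ctrl. Across groups it was highest in ApoE, as the mitotic sum was. Within ApoE the macrophage sum was higher in ApoE 2, where all 20 mitotic genes were lower than in ApoE 1. Lyz2 made up most of that sum, at 3885 and 7240 FPKM in ApoE, and Cd68 was also higher in ApoE 2 (449 and 559). Adgre1 (69.2 and 44.5), Csf1r (68.4 and 62.4) and Mrc1 (49.95 and 19.84) were higher in ApoE 1, as the mitotic genes were. Between the controls the mitotic sum (10.4 and 26.3 FPKM) differed in the same direction as the sums of 5 T cell markers (3.10 and 19.0) and 5 B cell markers (3.67 and 18.6), and as Hbb-bt, a haemoglobin gene of red cells (30.2 and 109.9). The adipocyte and mesothelial sums given below were also higher in Ctrl 2, while the smooth muscle, macrophage, fibroblast and endothelial sums were lower there. Hbb-bt stood at 23.6 and 76.5 in ApoE and 7.41 and 16.9 in CKD. No macrophage, T cell or B cell marker was at 0 in any library. In ApoE the T cell sum was 6.23 and 9.34 and the B cell sum 5.05 and 10.9, and in CKD they were 1.15 and 1.50 and 1.33 and 0.805. The adipocyte sum was 122 and 318 in Ctrl, 988 and 1001 in ApoE and 2418 and 769 in CKD, and the mesothelial sum was 0.456 and 1.03, 8.32 and 5.34, and 53.0 and 42.1. The fibroblast sum was 1273 and 1106 in Ctrl, 742 and 517 in ApoE and 640 and 931 in CKD, and the endothelial sum 324 and 272, 243.5 and 245, and 149 and 247. Pecam1 led the endothelial sum, at 223 and 187 in Ctrl and 106 and 108 in ApoE. Of the 5 endothelial markers 4 had a positive difference of ApoE from Ctrl, with 2 called higher and 1 called lower. The fibroblast and endothelial sums were higher in CKD 2 than in CKD 1, as the mitotic sum was. So were the smooth muscle, macrophage and T cell sums, while the B cell, adipocyte and mesothelial sums were lower in CKD 2. Mitochondrial reads also differed, at 3.36% and 4.49% of reads in Ctrl, 10.4% and 11.8% in ApoE and 10.7% and 6.12% in CKD. The part of these cell types and of the mitochondrial share in the levels of the cell cycle genes was not tested.

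**Figure D5:**
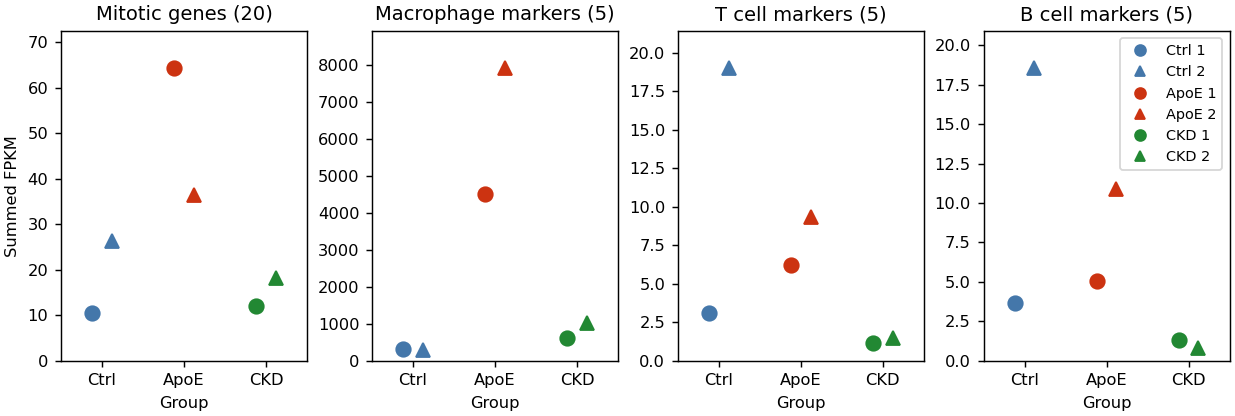
Summed FPKM of the 20 mitotic genes and of 5 macrophage, 5 T cell and 5 B cell markers in each library, on linear axes that start at 0. The mitotic sum is highest in ApoE 1 (64.4), the macrophage sum, led by Lyz2, in ApoE 2 (7926) and the T and B cell sums in Ctrl 2 (19.0 and 18.6).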

How the data were processed

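RNA-seq values of 6 aorta libraries were used, grouped by their labels. The authors deposited 1 value per gene, taken as FPKM from the values themselves, since neither header nor label names the unit. In 5 of the deposited files identifiers and values share 1 column, and these were separated and matched by identifier. The submitters' processing notes name Bowtie2 2.2.3, HISAT2 2.1.0, TopHat2 and GRCm38, and which tool counted reads against which annotation is not given in the sources used here. Symbols were matched for 27695 of 27815 identifiers, and positions and exon lengths came from GENCODE M21. FPKM times exon length gave whole reads, within 0.05, for 89.3% to 89.7% of values and for all 37 members, which gave depths of 14.44 to 16.64 M reads. Reads of paralogues and overlapping genes may be misassigned.

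The design named a count model for counts and limma for FPKM, and limma was used: log2(FPKM + 1), a minimum of 1 FPKM in 2 or more libraries, a single model of 3 group means, trend and robust spread (limma 3.58.1, R 4.3.3), tested on simulated data. Fold changes on this scale understate those of low genes. The members and lists were chosen with earlier results of these data known. Library values and statistics are given for the members called in any comparison and for Mki67, Top2a, Cdk1, Ccnd1, Pcna and Mcm2, and from each other list for up to 4 called genes with the smallest adjusted p, of which the leading ones are printed. The chi-square over its degrees of freedom between the libraries of a group was 15.4 for Ctrl, 30.3 for ApoE and 52.4 for CKD, so none was a copy. A marker list is given by a single gene, and the rest of it is not reported here. Alternatives changed the pseudocount, filter, scaling, spread, block and libraries.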

Additional observations from a re-analysis of the deposited data

How the results depend on the processing

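Members called, 18 in ApoE against Ctrl and 19 in ApoE against CKD, fell to 6 and 10 with no filter, where all 37 were tested among many near-zero genes. The shares of all genes called in those fits, and with the replicate block below, are not given here. Leaving out 1 library gave 2 to 14 and 3 to 16 calls, and 0 in CKD against Ctrl. Over all genes these fits called 2992 to 7022, against 6208, in ApoE against Ctrl, 2559 to 4941 in ApoE against CKD and 0 to 2366, against 766, in CKD against Ctrl. Where 1 library stood for a group, it was assumed to vary like the others. In CKD against Ctrl 1 gene was called with no filter and 3 when only the 4 libraries compared were fitted.

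The replicate block gave 11 and 12 member calls and, for CKD against Ctrl, 46 genes and 0 members. Same-numbered libraries shared only a number, since their deviations correlated at 0.05, -0.23 and -0.10, so the block is not a check of pairing.

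G1/S minus mitotic was -0.81 (ApoE against Ctrl) and -0.61 (ApoE against CKD) with a pseudocount of 0.1. Leaving out 1 library gave -0.53 to -0.22, -0.30 to -0.16 and, for CKD against Ctrl, -0.30 to 0.012. The filter on the mean was chosen after seeing the data. No member's call reversed under the alternatives run, and scaling moved the median of all genes by at most 0.07. With 2 libraries a group, an exact test over 2 against 2 has 6 arrangements and cannot pass 0.05. At the depth of Ctrl 1, 719 mitotic reads in all, differences among low genes rest on few reads.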
